A study of Saccharomyces cerevisiae with 2 samples.

Results

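The meiosis and spore formation genes analysed here are 44 named genes of Saccharomyces cerevisiae, taken by symbol from the list of SPO, SPR, SPS and related genes, and all 44 have a row among the 6716 genes of the expression tables. RNA was sequenced from 1 library of the Chinese rice wine strain YHJ7, labelled DY1 and YHJ8 and given as wild type, and from 1 library of BY4741, a laboratory strain of mating type MATa whose labels carry his△1, leu2△0 and lys2△0, and also ura3△0. YHJ7 is described in the study's methods as a haploid obtained by sporulation of an isolate from rice wine. Both strains were grown in rich YPD medium, started at an OD600 of 0.05 in 25 mL, and were harvested at early stationary phase, so neither culture was placed under conditions for sporulation. The material of 2 biological replicates went into each library before sequencing. The spread between cultures can therefore not be seen, the differences below have no replicate check, and p-values are not given.

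In budding yeast, diploid cells that run out of nitrogen and lack a fermentable carbon source leave the mitotic cycle, pair and recombine their homologous chromosomes in meiotic prophase, divide their nuclei in succession without an intervening round of replication, and wrap each haploid nucleus in a new membrane and a layered, resistant spore wall. The genes act in waves. Early genes of prophase are held off in growing cells by Ume6 bound at a sequence named URS1, and are switched on through Ime1. Middle genes of division and spore assembly are repressed by Sum1 and activated by Ndt80 at the middle sporulation element, abbreviated MSE. In growing cells most of these genes are kept nearly silent.

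Many promoters of the 44 genes carry the core of URS1 or of the MSE, and 17 held neither in the window searched. In a window of 300 bases, from 250 before to 50 after the start of each gene, the URS1 core (GGCGGC on either strand) was present in 13 of the 18 genes of prophase and meiotic division and in 0 of the 26 genes of spore formation. The MSE core (GNCACAAA or GNCGCAAA on either strand) was present in 0 of the 18 and in 14 of the 26. Among all 6020 promoters of protein-coding genes searched, 5.12% held the URS1 core and 7.34% held the MSE core, and no gene of the 44 held both. A match is a description of these letters and is not evidence of binding. The windows of 5 genes are printed here because these genes differed by at least 2-fold between the strains, in both directions. REC8 and HOP1 hold the URS1 core, and SPR3, SMA2 and SPS2 hold the MSE core. The sequences are from the RefSeq R64 reference (S288c), read 5′ to 3′ on the strand of the gene, with the motif in capitals.
REC8: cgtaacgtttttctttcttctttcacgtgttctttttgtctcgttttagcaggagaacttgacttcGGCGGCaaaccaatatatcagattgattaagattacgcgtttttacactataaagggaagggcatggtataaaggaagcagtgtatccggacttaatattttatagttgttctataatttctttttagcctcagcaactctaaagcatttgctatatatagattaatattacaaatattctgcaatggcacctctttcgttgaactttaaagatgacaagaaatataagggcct
HOP1: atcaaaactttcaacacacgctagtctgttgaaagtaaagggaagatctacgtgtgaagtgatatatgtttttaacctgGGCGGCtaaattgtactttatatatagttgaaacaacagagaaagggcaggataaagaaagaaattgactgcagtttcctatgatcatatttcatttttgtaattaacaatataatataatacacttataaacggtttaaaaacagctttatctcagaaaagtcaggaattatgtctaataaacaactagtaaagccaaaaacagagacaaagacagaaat
SPR3: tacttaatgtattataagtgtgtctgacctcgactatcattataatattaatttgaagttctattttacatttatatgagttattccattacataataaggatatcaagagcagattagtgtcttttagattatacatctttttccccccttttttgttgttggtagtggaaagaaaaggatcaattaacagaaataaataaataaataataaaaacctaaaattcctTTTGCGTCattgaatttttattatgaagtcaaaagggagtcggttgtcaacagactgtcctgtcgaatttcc
SMA2: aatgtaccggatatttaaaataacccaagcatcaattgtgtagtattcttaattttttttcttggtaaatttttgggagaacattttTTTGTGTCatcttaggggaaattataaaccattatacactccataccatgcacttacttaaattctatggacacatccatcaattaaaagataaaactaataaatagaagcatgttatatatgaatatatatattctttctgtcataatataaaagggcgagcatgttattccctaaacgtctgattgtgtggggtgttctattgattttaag
SPS2: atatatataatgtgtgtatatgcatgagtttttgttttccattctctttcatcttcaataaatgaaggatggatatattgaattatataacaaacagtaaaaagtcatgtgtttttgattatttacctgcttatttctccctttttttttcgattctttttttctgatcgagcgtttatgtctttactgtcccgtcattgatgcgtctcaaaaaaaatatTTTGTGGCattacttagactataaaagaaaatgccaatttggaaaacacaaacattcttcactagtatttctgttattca
The windows lie at chrXVI:571329-571628 on the minus strand for REC8 and chrIX:226352-226651 on the plus strand for HOP1. Those of the spore genes lie at chrVII:607313-607612 on the plus strand for SPR3, chrXIII:141484-141783 on the minus strand for SMA2 and chrIV:1485254-1485553 on the minus strand for SPS2. The first base of the URS1 core stands 184 bases before the start of REC8 and 171 before HOP1. The first base of the MSE core stands 22 bases before the start of SPR3, 163 before SMA2 and 30 before SPS2, and in these 3 windows it is read on the strand opposite to the gene.

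The tables hold an FPKM value (fragments scaled to the length of the transcript and to the size of the library) and an estimated count for each gene. The columns were assigned to strains by their headings, because each table is attached to the sample of the other strain. The library headed BY4741 had 0 counts for LEU2 and URA3, and also for MET17. HIS3 was at 188 FPKM in YHJ7 and 91.6 FPKM in BY4741, and LYS2 was at 25.3 and 26.1 FPKM in YHJ7 and BY4741, although the labels give both genes as mutated or deleted in BY4741. Markers of cell type differed between the libraries. All 8 haploid-specific genes, which diploid cells repress, were lower in YHJ7 by at least 1 on the log2 scale used below, with a summed level of 54.7 FPKM in YHJ7 and 789 FPKM in BY4741. Of 7 a-specific genes 6 were lower, with 627 FPKM in YHJ7 and 9696 FPKM in BY4741, and of 4 alpha-specific genes 2 were lower, with 35.6 FPKM in YHJ7 and 77.9 FPKM in BY4741. Every marker had counts in both libraries. These values stand beside the description of YHJ7 as haploid, and its ploidy and mating type were not measured here.

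About 8168400 fragments of YHJ7 and 10219000 of BY4741 fell on named genes, taking 1 fragment as worth 1.253 deposited counts in YHJ7 and 0.797 in BY4741. Intervals given below are 95% counting intervals of a ratio and cover counting error only.

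Most of the 44 genes were near the bottom of both libraries. Their median FPKM was 4.06 in YHJ7 and 5.57 in BY4741, against a median of 42.4 and 39.8 over all genes. In YHJ7 36 of the 44 genes were under 10 FPKM, and in BY4741 29 were. In each library 40 of the 44 lay below the median of all genes, and the median member stood at percentile 9.60 in YHJ7 and 7.93 in BY4741. In YHJ7 3 genes were at or under 3 fragments, which are SPO19, SPR3 and SSP2, and in BY4741 0 were.

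A few members were not low. SPS100, which is needed for the maturation of the spore wall, was at 1274 FPKM in YHJ7 and 2565 FPKM in BY4741, rank 313 and rank 119 of all genes, and alone made up 72.4% and 81.9% of the summed FPKM of the 44 genes. SPO73, required for growth of the prospore membrane, was at 148 FPKM in YHJ7 and 107 FPKM in BY4741. The next genes in YHJ7 were REC114 at 82.2 FPKM, MER1 at 51.4 FPKM and SPR6 at 37.9 FPKM. The next genes in BY4741 were SPR6 at 76.6 FPKM, SMA2 at 46.1 FPKM and MER1 at 33.3 FPKM. SPS100 and SPO73 were thus first and second in both libraries, and the order below them differed. The plot of levels by role shows the low bulk and these few exceptions.

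**Figure D1:**
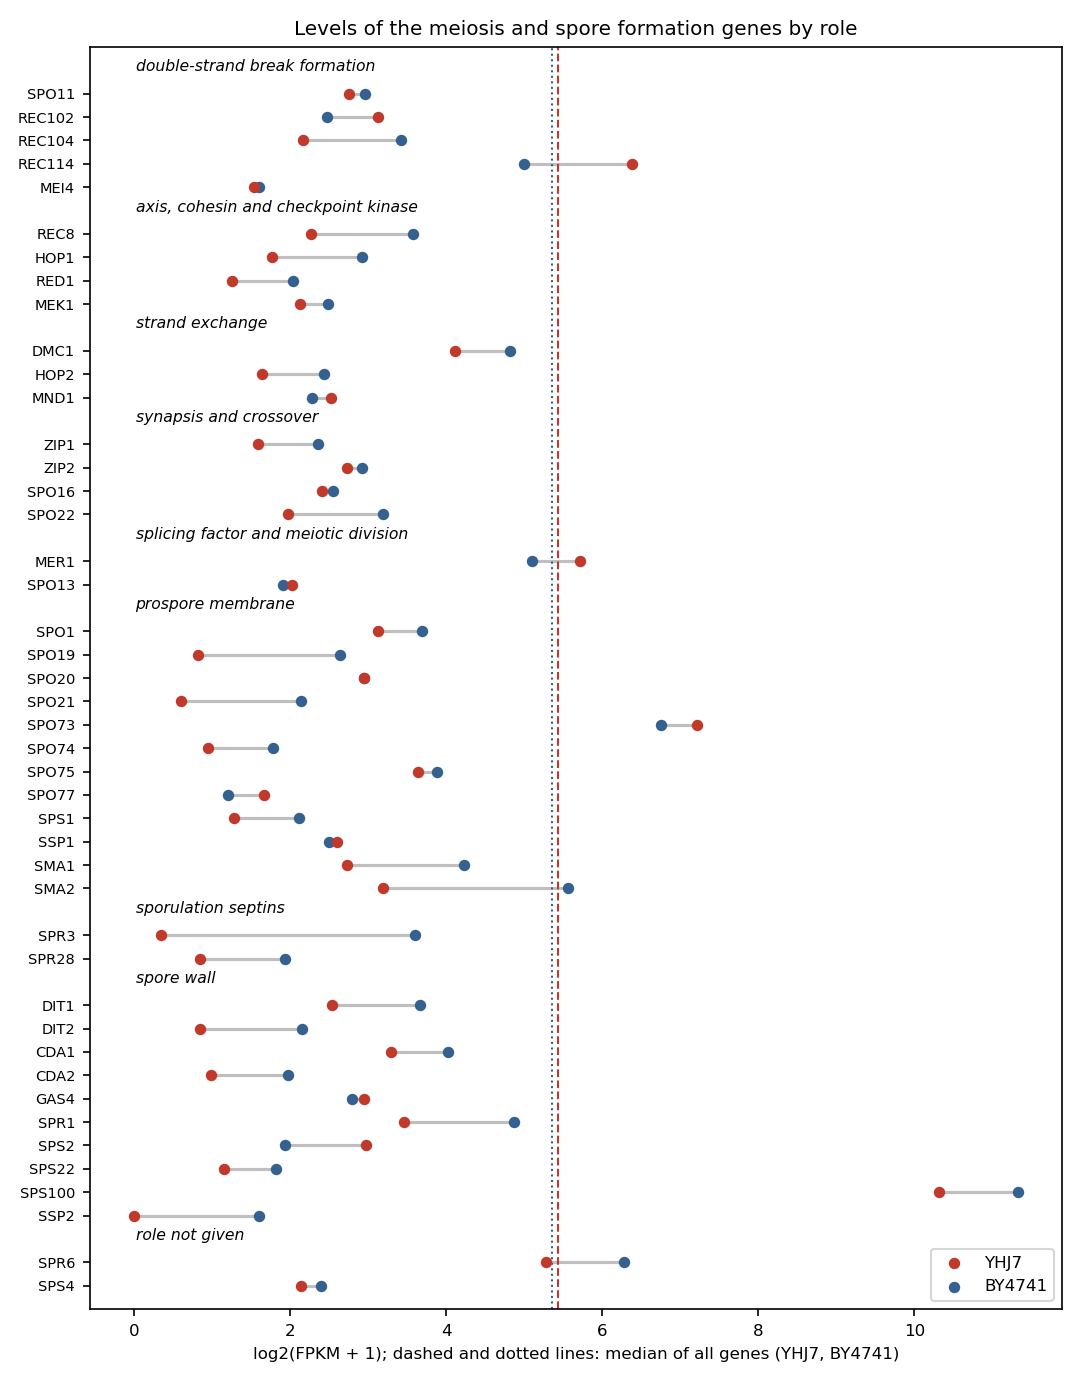
Level of each of the 44 genes as log2(FPKM + 1) on the horizontal axis, grouped by role, with YHJ7 in red and BY4741 in blue, 1 library each. The dashed red and dotted blue lines are the medians of all genes (42.4 FPKM in YHJ7 and 39.8 FPKM in BY4741), and 40 of the 44 genes lie to the left of them in each library.

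The genes were, on the whole, lower in YHJ7 than in BY4741. On the scale of log2(FPKM + 1), YHJ7 minus BY4741, which understates the change of low genes, 33 of the 44 were below 0, and the median was -0.76, against 49.2% of all genes below 0 and a median of 0.00. A difference of at least 1, which is 2-fold on that scale, was reached by 15 genes lower in YHJ7 (34.1%) and by 2 genes higher in YHJ7 (4.55%). Over all 6716 genes, 9.84% were lower and 12.4% were higher by that measure. After the counts of YHJ7 and BY4741 were brought to a common total, which moved the median of all genes by -0.30, 15.7% of all genes were lower and 7.55% higher, and 21 members were lower and 1 was higher.

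Genes of this level were often lower in YHJ7, whatever their role. Among the 790 genes with a mean FPKM between 2.77 and 10.3, the quartiles of the 44 members, 28.7% were lower by at least 1, 6.46% were higher, and 68.2% were below 0, with a median of -0.39. Of the 22 members in that band, 7 were lower (31.8%) and 1 was higher, with a median of -0.30. For the members in the band, the share lower in YHJ7 was thus near the share of all genes of like level. The members outside the band were not matched for level. The share of lower members is therefore not read as a result about these genes as a class. This band was chosen after the data were examined. The plot of differences against level shows the members within the cloud of low genes, which leans toward lower values in YHJ7.

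**Figure D2:**
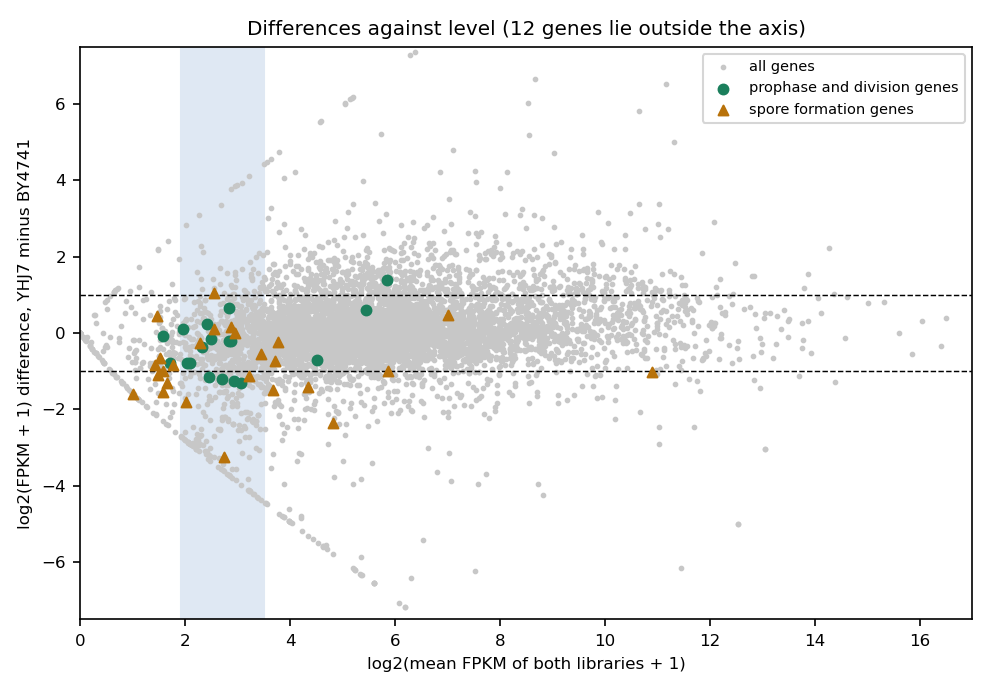
Difference of log2(FPKM + 1), YHJ7 minus BY4741, against log2 of the mean FPKM of both libraries plus 1, for all 6716 genes in grey (12 lie outside the axis), the 18 prophase and division genes as green circles and the 26 spore formation genes as orange triangles. Dashed lines mark a difference of 1 in either direction, and the shaded band holds the 790 genes of like level, of which 28.7% lie below the lower line.

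**Figure D3:**
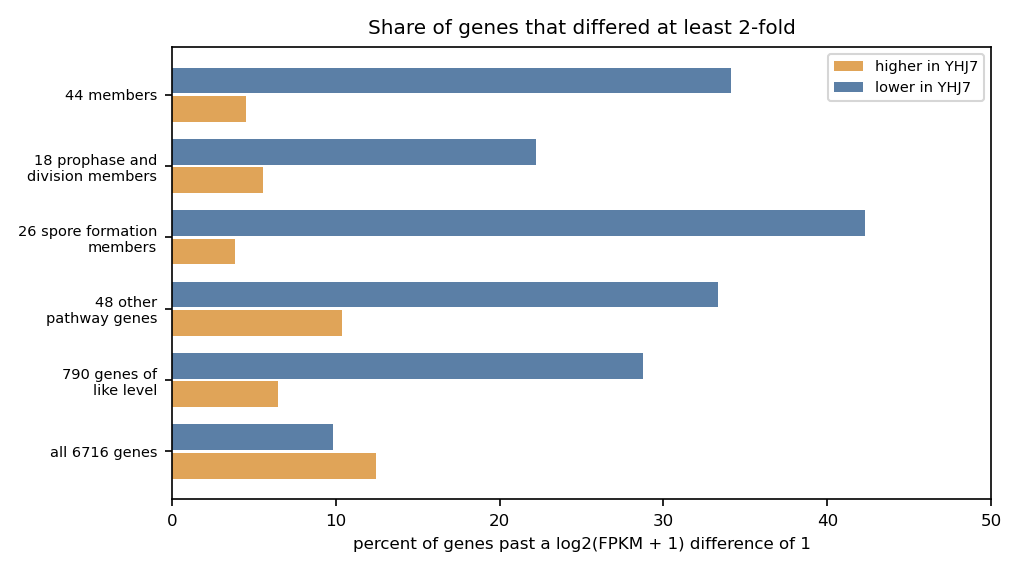
Percent of genes with a log2(FPKM + 1) difference of at least 1, lower in YHJ7 in blue and higher in YHJ7 in orange, for the 44 members and their subsets, the 48 other pathway genes, the 790 genes of like level and all 6716 genes. The members (34.1% lower) stand near the genes of like level (28.7%) and above all genes (9.84%). The band of like level holds 22 of the 44 members.

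The genes of double-strand break formation went both ways. REC114 encodes a protein that forms a complex with Mei4 and Mer2 on the chromosome axis and is required for Spo11 to cut. It was at 82.2 FPKM in YHJ7 and 30.8 FPKM in BY4741, from 736 and 434 fragments, and was 2.67-fold higher in YHJ7 with a log2 ratio of 1.41 (interval from 1.24 to 1.59). This was the largest positive difference of the 44 genes. Its downstream neighbour on the same strand, YMR134W, 228 bases away, was at 76.2 FPKM in YHJ7 and 23.3 FPKM in BY4741, and its upstream neighbour on the opposite strand, JLP2, was at 24.5 FPKM in YHJ7 and 10.3 FPKM in BY4741, so the genes on either side were higher in YHJ7 too. The authors' deposited table of comparisons, a separate file of FPKM values, joins REC114 with YMR134W, and its log2(FPKM + 1) difference there was 2.04. The part of the neighbours in the value of REC114 was not tested.

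REC104, which with Rec102 belongs to the core complex around Spo11, was lower in YHJ7. It lies on chromosome VIII from 412907 to 413455 and was at 3.49 FPKM in YHJ7 and 9.76 FPKM in BY4741, from 10 and 44 fragments, a log2 ratio of -1.48 (interval from -2.64 to -0.47). REC102 was at 7.76 FPKM in YHJ7 and 4.55 FPKM in BY4741, and its interval, from 0.07 to 1.48, lay just above 0. These 2 subunits of the same complex therefore stood on opposite sides of 0. SPO11 itself, the topoisomerase-like protein that makes the breaks, was at 5.72 FPKM in YHJ7 and 6.82 FPKM in BY4741, with an interval from -0.79 to 0.27. MEI4 was at 1.89 FPKM in YHJ7 and 2.03 FPKM in BY4741, from 16 and 27 fragments, with an interval from -1.09 to 0.84. At this depth no difference was detectable for SPO11 or MEI4.

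The 4 genes of the chromosome axis and its kinase were all below 0, with a median of -0.97. Of all genes 49.2% were below 0, and of the 790 genes of like level 68.2% were. REC8, the meiotic kleisin subunit of cohesin, lies on chromosome XVI from 569336 to 571378 and was at 3.82 FPKM in YHJ7 and 10.9 FPKM in BY4741, from 58 and 261 fragments. Its log2 ratio was -1.52 (interval from -1.95 to -1.10). HOP1, a HORMA-domain protein of the axis, on chromosome IX from 226602 to 228419, was at 2.40 FPKM in YHJ7 and 6.58 FPKM in BY4741, from 32 and 138 fragments, with a log2 ratio of -1.46 (interval from -2.06 to -0.89). Both genes were past a difference of 1 on the log2(FPKM + 1) scale. RED1, a further axis protein, was at 1.38 FPKM in YHJ7 and 3.11 FPKM in BY4741. MEK1, the kinase that steers repair toward the homologous chromosome, was at 3.38 FPKM in YHJ7 and 4.59 FPKM in BY4741, and its interval from -1.06 to 0.14 included 0.

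Of the 3 genes of strand exchange none reached a difference of 1 on the log2(FPKM + 1) scale. DMC1, the meiotic relative of the RecA recombinase, was at 16.3 FPKM in YHJ7 and 27.2 FPKM in BY4741, from 108 and 283 fragments, with a log2 ratio of -0.74 (interval from -1.07 to -0.41). HOP2 and MND1 encode the 2 subunits of a complex that assists Dmc1. HOP2 was at 2.13 FPKM in YHJ7 and 4.40 FPKM in BY4741, and MND1 at 4.76 FPKM in YHJ7 and 3.87 FPKM in BY4741, both with intervals that included 0.

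The 4 synapsis and crossover genes were below 0 as well, beside the same 49.2% of all genes and 68.2% of the genes of like level. SPO22, also named ZIP4, whose product links crossover proteins to the synaptonemal complex, lies on chromosome IX from 222937 to 225954. It was at 2.94 FPKM in YHJ7 and 8.12 FPKM in BY4741, from 66 and 287 fragments, with a log2 ratio of -1.47 (interval from -1.88 to -1.08). SPO22 and HOP1 are transcribed away from each other across 647 bases, and both were lower by at least 1. ZIP1, the central filament of the complex, was at 2.00 FPKM in YHJ7 and 4.13 FPKM in BY4741. ZIP2 and SPO16 encode crossover proteins that act with the product of SPO22. ZIP2 was at 5.64 FPKM in YHJ7 and 6.61 FPKM in BY4741, and SPO16 at 4.29 FPKM in YHJ7 and 4.87 FPKM in BY4741, with intervals that included 0.

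MER1 and SPO13 were both above 0. MER1, an RNA-binding protein that promotes the splicing of meiotic transcripts, was at 51.4 FPKM in YHJ7 and 33.3 FPKM in BY4741, a log2 ratio of 0.63 (interval from 0.37 to 0.88). Its downstream neighbour on the same strand, SSB2, a ribosome-associated chaperone 315 bases away, was at 1715 FPKM in YHJ7 and 499 FPKM in BY4741, and its part in the value of MER1 was not tested. SPO13, which keeps sister chromatids together in the first division, was at 3.06 FPKM in YHJ7 and 2.74 FPKM in BY4741, from 17 and 24 fragments, with an interval from -0.83 to 1.11 that included 0.

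The 26 genes of spore formation had a median difference of -0.91, with 11 lower and 1 higher by at least 1, and the 18 genes of prophase and division had a median of -0.29, with 4 lower and 1 higher. With 1 library a strain, this difference between the classes was not tested. Among the 790 genes of like level, 28.7% were lower and 6.46% higher, and over all genes 9.84% and 12.4%. The same shares stand beside the counts by role and by motif below.

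The largest difference belonged to a septin. SPR3, a sporulation-specific septin that lines the growing prospore membrane, lies on chromosome VII from 607563 to 609101 and was at 0.27 FPKM in YHJ7 and 11.1 FPKM in BY4741, from 3 and 193 fragments. It was 40.9-fold lower in YHJ7, with a log2 ratio of -5.35 and a wide interval from -7.64 to -3.79. Its upstream neighbour PEF1, on the same strand, was at 31.7 FPKM in YHJ7 and 33.5 FPKM in BY4741, so the gene next to SPR3 was nearly level. SPR28, the other sporulation septin, was at 0.79 FPKM in YHJ7 and 2.81 FPKM in BY4741, from 7 and 39 fragments, with a log2 ratio of -1.83 (interval from -3.23 to -0.65). Both septins were therefore lower in YHJ7, and both hold the MSE core.

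Of the 12 genes of the prospore membrane, 4 were lower in YHJ7 by at least 1 and none was higher, with a median of -0.70. SMA2, needed for the assembly of that membrane, lies on chromosome XIII from 140424 to 141533. It was at 8.14 FPKM in YHJ7 and 46.1 FPKM in BY4741, from 61 and 543 fragments, 5.66-fold lower, with a log2 ratio of -2.50 (interval from -2.91 to -2.12). SMA2 rests on more fragments than the other prospore membrane genes past a difference of 1. Its downstream neighbour ERV41, on the same strand, was at 92.8 FPKM in YHJ7 and 138 FPKM in BY4741, a smaller difference of -0.57 on the log2(FPKM + 1) scale.

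SPO21 and SPO74 encode parts of the outer plaque that the spindle pole body builds in meiosis, from which the prospore membrane starts. SPO21, on chromosome XV from 145334 to 147163, was at 0.52 FPKM in YHJ7 and 3.41 FPKM in BY4741, from 7 and 72 fragments, with a log2 ratio of -2.71 (interval from -4.07 to -1.59). SPO74 was at 0.93 FPKM in YHJ7 and 2.45 FPKM in BY4741, with an interval from -2.72 to -0.25. SPO19, a meiosis-specific prospore protein on chromosome XVI from 304387 to 305058, was at 0.77 FPKM in YHJ7 and 5.24 FPKM in BY4741, from 3 and 32 fragments, with a log2 ratio of -2.76 (interval from -5.11 to -1.09).

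SMA1, which acts in the same membrane assembly as SMA2, was at 5.65 FPKM in YHJ7 and 17.8 FPKM in BY4741, from 25 and 124 fragments, with a log2 ratio of -1.66 (interval from -2.34 to -1.03). The authors' deposited table of comparisons joins SMA1 with ERG10, an ergosterol gene 372 bases upstream on the same strand, and with the FPKM values of that table the difference reversed to 0.69. ERG10 was at 701 FPKM in YHJ7 and 418 FPKM in BY4741 in the per-library values, so the direction of SMA1 rests on the count of the gene by itself.

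The other genes of this membrane were within a difference of 1 on the log2(FPKM + 1) scale. SPO20, a SNARE protein of the SNAP-25 type that fuses vesicles into the membrane, was at 6.72 FPKM in YHJ7 and 6.68 FPKM in BY4741, and was the most nearly level of the 44 genes. SSP1, a component of the ring at the leading edge, was at 5.04 FPKM in YHJ7 and 4.63 FPKM in BY4741, and SPO77, which is required for spore wall formation, at 2.16 FPKM in YHJ7 and 1.31 FPKM in BY4741, both with intervals that included 0. SPO73 had a log2 ratio of 0.47 (interval from 0.23 to 0.71). SPO75, required for spore formation, was at 11.5 FPKM in YHJ7 and 13.8 FPKM in BY4741. SPO1, a phospholipase B homologue, was at 7.73 FPKM in YHJ7 and 11.9 FPKM in BY4741, and SPS1, a kinase of the Ste20 family, at 1.43 FPKM in YHJ7 and 3.34 FPKM in BY4741, and the intervals of SPO75, SPO1 and SPS1 lay below 0.

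Among the 10 genes of the spore wall, 5 were lower in YHJ7 by at least 1 and 1 was higher. DIT1 and DIT2, of which DIT2 encodes a cytochrome P450, act in the synthesis of the dityrosine of the outermost layer and are transcribed away from each other across 898 bases of chromosome IV. DIT1, from 1274602 to 1276212, was at 4.82 FPKM in YHJ7 and 11.7 FPKM in BY4741, from 56 and 213 fragments, with a log2 ratio of -1.27 (interval from -1.73 to -0.84). DIT2, from 1272234 to 1273703, was at 0.80 FPKM in YHJ7 and 3.46 FPKM in BY4741, with a log2 ratio of -2.11 (interval from -3.46 to -1.11). The pair was thus lower together. The locus of DIT2 in the files overlaps that of YDR401W, which was at 0.20 FPKM in YHJ7 and 3.20 FPKM in BY4741, and the counts of DIT2 are not whole fragments, so how the authors split reads among these genes is uncertain.

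SSP2, which activates the kinase Smk1 for spore wall assembly, lies on chromosome XV from 788742 to 789857 and had 0 fragments in YHJ7 and 24 in BY4741, or 0 FPKM and 2.02 FPKM. The upper limit of its log2 ratio was -1.94. Set against the floor of 3 fragments in the YHJ7 library it was 5.09-fold lower, a figure that leaves out counting error and is not a bound. The table of comparisons, a separate estimate, gave SSP2 0.27 FPKM in YHJ7 and 2.20 FPKM in BY4741. SPR1, an exo-1,3-beta-glucanase of sporulation, on chromosome XV from 690695 to 692032, was at 10.03 FPKM in YHJ7 and 28.2 FPKM in BY4741, from 94 and 416 fragments, with a log2 ratio of -1.49 (interval from -1.83 to -1.17). SPS100, on chromosome VIII from 378219 to 379199, was just past the line at a difference of -1.01, from 8193 and 25932 fragments, and SPR6, whose role is not given here, was just short of it at -0.997. The table of comparisons joins SPS100 with YHR138C and YHR139C-A, and its difference there was -0.66.

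The chitosan layer beneath the dityrosine is made by the chitin deacetylases Cda1 and Cda2. CDA1 was at 8.78 FPKM in YHJ7 and 15.3 FPKM in BY4741, and CDA2, farther along chromosome XII, at 0.99 FPKM in YHJ7 and 2.93 FPKM in BY4741, and both intervals lay below 0. The gene between them, YLR307C-A, was at 8366 FPKM in YHJ7 and 18153 FPKM in BY4741, also lower in YHJ7, and its part in these values was not tested. The coding sequences of CDA1 and CDA2 are 66.5% identical, with a longest shared run of 17 bases, so fragments can be told apart over most of their length. GAS4, a glucanosyltransferase of the inner glucan layer, was at 6.69 FPKM in YHJ7 and 5.90 FPKM in BY4741, with an interval from -0.30 to 0.65.

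SPS2 was the only spore gene of the 26 that was higher in YHJ7 by at least 1. It encodes a cell-surface protein that, with its relative Sps22, organises the glucan layer of the spore wall, and lies on chromosome IV from 1483795 to 1485303. It was at 6.86 FPKM in YHJ7 and 2.83 FPKM in BY4741, from 74 and 48 fragments, with a log2 ratio of 1.28 (interval from 0.73 to 1.83). Its difference of 1.04 on the log2(FPKM + 1) scale was under 1 after scaling to a common total, at 0.75, and with a pseudocount of 5 FPKM, at 0.60. SPS22 was at 1.22 FPKM in YHJ7 and 2.53 FPKM in BY4741, with a log2 ratio of -1.05 (interval from -2.12 to -0.08), so the intervals of these 2 relatives did not overlap. Their coding sequences are 62.6% identical, with a longest shared run of 13 bases. SPS1, which ends 262 bases before SPS2 begins on the same strand, was lower in YHJ7. SPS4 was at 3.42 FPKM in YHJ7 and 4.25 FPKM in BY4741.

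**Figure D4:**
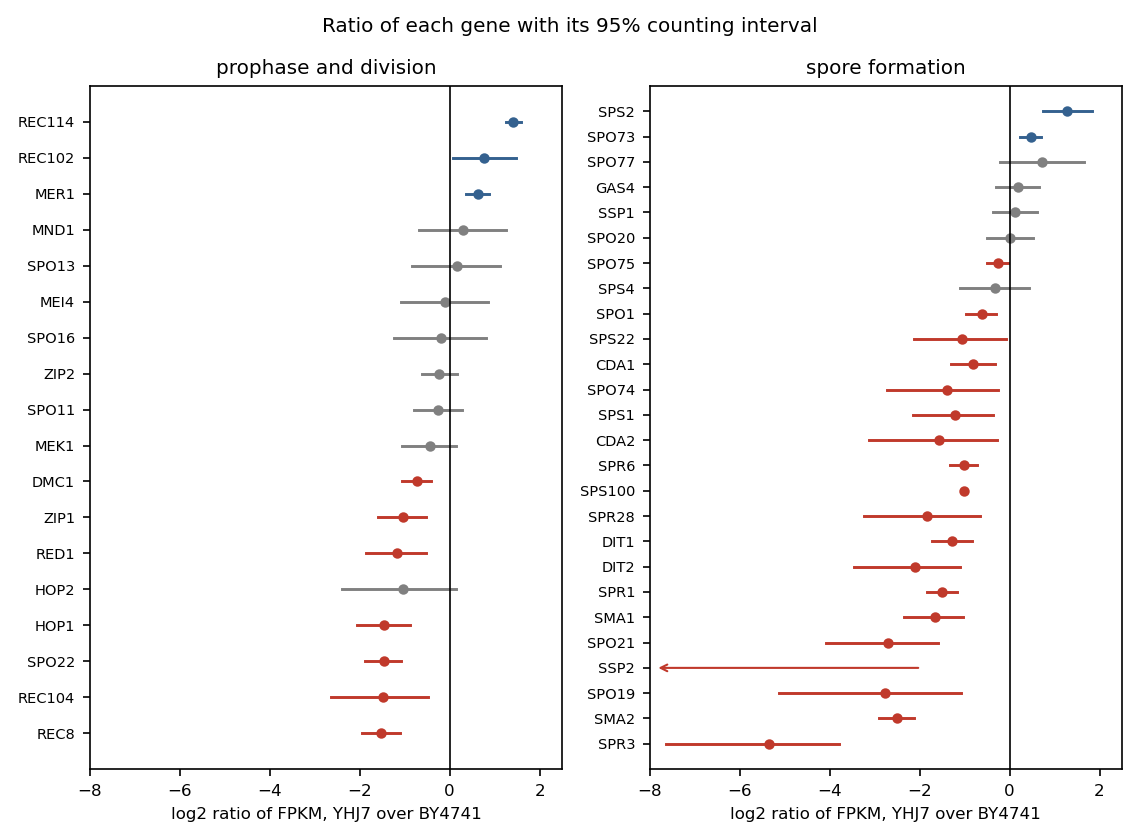
Log2 ratio of FPKM, YHJ7 over BY4741, for each gene with its 95% counting interval as a bar, prophase and division genes on the left and spore formation genes on the right. Red marks the 26 genes whose interval lies below 0, blue the 5 whose interval lies above 0 and grey the 13 whose interval includes 0. The arrow for SSP2 runs from its upper limit, since it had 0 fragments in YHJ7.

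The counting interval lay below 0 for 26 genes and above 0 for 5 genes, and it included 0 for 13. Over the 6641 genes with counts, 33.3% had an interval below 0 and 37.2% an interval above 0. These intervals say nothing about the spread between cultures.

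The members with and without a promoter motif had similar medians. The 13 genes with the URS1 core had a median difference of -0.70, with 4 lower and 1 higher by at least 1. The 14 genes with the MSE core had a median of -0.75, with 5 lower and 1 higher. The 17 genes with neither had a median of -0.79, with 6 lower and 0 higher. Over the genes of all 308 promoters with the URS1 core the median was 0.00, with 41 lower and 42 higher. Over those of the 442 with the MSE core it was -0.06, with 71 lower and 44 higher. The URS1 core stands 20 bases before the start of ZIP1 and between 88 and 184 bases before the start of the others, and MEK1 holds 2 copies.

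**Figure D5:**
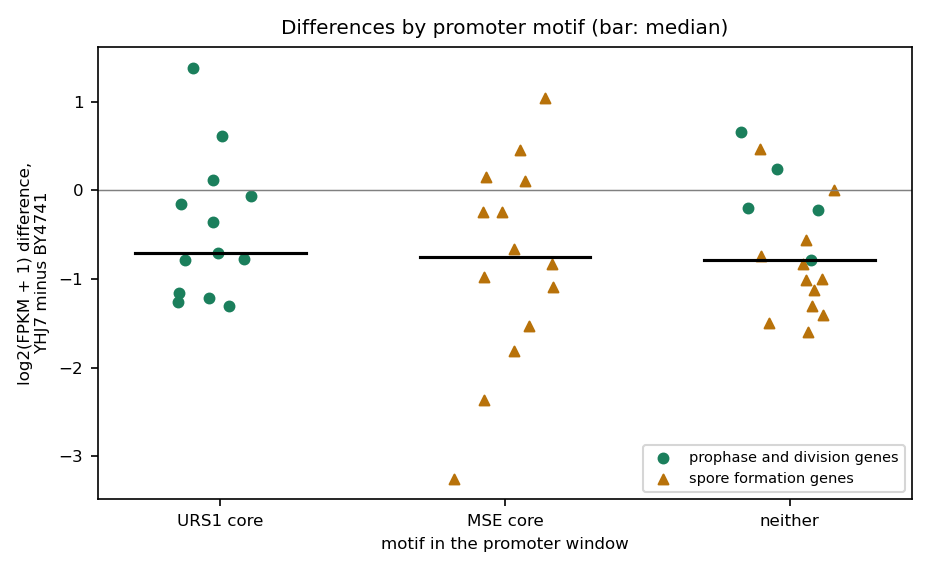
Difference of log2(FPKM + 1), YHJ7 minus BY4741, of the 44 genes by the motif in the promoter window, with prophase and division genes as green circles, spore formation genes as orange triangles and the median of each class as a bar. The medians are -0.70 with the URS1 core, -0.75 with the MSE core and -0.79 with neither.

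Other genes of the pathway, which are not among the 44, were read for comparison. Of 48 such genes, 16 were lower and 5 higher in YHJ7 by at least 1 (33.3% and 10.4%), beside 9.84% and 12.4% of all genes. Their median level was 10.8 FPKM in YHJ7 and 16.9 FPKM in BY4741, under that of all genes. Genes of low level were often lower in YHJ7, as given above, and no share at the level of these 48 was computed. The 18 further genes of spore formation had a median of -0.79, with 7 lower and 0 higher. MPC54, a partner of Spo21 in the meiotic outer plaque, was at 2.23 FPKM in YHJ7 and 16.2 FPKM in BY4741, with a log2 ratio of -2.86 (interval from -3.56 to -2.23). ADY3 and SSP1 both encode leading-edge proteins, and ADY3 was at 3.07 FPKM in YHJ7 and 7.71 FPKM in BY4741. OSW2, LDS1 and LDS2, and also YSW1 and SPS18, were lower by at least 1. The 15 further genes of the prophase machinery had 5 lower and 2 higher. The lower genes were MSH5 and HED1, and also SAE3, NDJ1 and GMC2, of which SAE3, NDJ1 and GMC2 had at most 2 fragments in YHJ7. The higher genes were CSM4, which moves chromosome ends in prophase, at 139 FPKM in YHJ7 and 57.5 FPKM in BY4741, and MAM1, which clamps sister kinetochores, at 9.08 FPKM in YHJ7 and 3.92 FPKM in BY4741.

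Of the 15 regulators of meiosis, 11 were below 0, 4 were lower and 3 were higher in YHJ7 by at least 1, and the median was -0.28. Over all genes 49.2% were below 0, and 9.84% were lower and 12.4% higher by at least 1. IME1, the master activator of the early genes, was at 101 FPKM in YHJ7 and 32.9 FPKM in BY4741, and RME1, which represses IME1 in haploid cells, was at 3.802 FPKM in YHJ7 and 364 FPKM in BY4741. The kinase gene IME2 and RIM4, an RNA-binding protein of meiosis, were also higher in YHJ7, while NDT80 was at 10.4 FPKM in YHJ7 and 19.1 FPKM in BY4741. IME4 and SLZ1, which belong to the complex that methylates adenosine in RNA during meiosis, were lower in YHJ7 by at least 1, as was AMA1, an activator of the anaphase-promoting complex. The libraries are not stated to keep strand, so reads from the strand opposite to IME4 cannot be told apart from its own. RME1 is also one of the 8 haploid-specific markers given above, which were all lower in YHJ7. The part of mating type and ploidy in the values of the 44 genes was not tested, and how far each culture had gone into stationary phase cannot be told apart from its genotype.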

How the data were processed

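RNA-Seq libraries of YHJ7 and BY4741, 1 per strain, were compared. According to the study's methods, the authors mapped reads of both strains to S288c (sacCer3) and estimated expression. The submitters' processing notes name TopHat2 2.0.4 and Cufflinks 2.0.2. The paper gives BY4741 as isogenic with S288c and reports many sequence variants between YHJ7 and S288c. Loss of YHJ7 reads in mapping was not tested, and the promoter letters of YHJ7 were not read. The deposited FPKM values and deposited estimated counts carry a factor for each library. The worth of 1 fragment was the largest step whose share of whole multiples (within 0.02 of a fragment, values up to 500) lay within 0.1 of the highest share, and its share was 74.9% in YHJ7 and 75.0% in BY4741. With 1 library per strain no count model was fitted. The counts of 42 of the 44 genes were whole in each library. The row that names no gene (0.309% of counts in YHJ7 and 0.806% in BY4741) was left out. The authors' deposited table of comparisons holds fold changes, p-values and q-values, which were not used; its FPKM values served as an alternative.

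Differences are log2(FPKM + 1), YHJ7 minus BY4741. Ratios of fragments have exact conditional binomial (Clopper-Pearson) 95% intervals. FPKM is per length, so levels of different genes can be compared. A library that keeps strand is not stated, so reads of overlapping genes cannot be told apart. Gene coordinates are from the RefSeq R64 annotation of S288c, and 6026 genes matched by name; all deposited loci lie inside its chromosomes, and 41 of the 44 genes have the same bounds in both. LDS1, LDS2 and GMC2, listed under systematic names in the files, were matched through RefSeq. Named genes were all 44 members, pathway genes and markers with a difference of at least 1, and neighbours. NDT80 and LYS2 are named outside this rule and were chosen after their values were seen. The members and lists were chosen with earlier results of these data known. Alternatives were other pseudocounts (0.1 and 5), a stricter threshold, a filter on mean FPKM, a common total, the other step, the FPKM of the table of comparisons and, added after seeing the data, the band of like level and leaving out members that share a locus. The step and interval computations were tested on simulated data. Python 3.11.15, NumPy, pandas, SciPy, Biopython and matplotlib were used.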

Additional observations from a re-analysis of the deposited data

How the results depend on the processing

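No paired analysis was possible because YHJ7 and BY4741 were sequenced as a single library apiece, and for the same reason leaving out replicates was not an option. With a pseudocount of 5 FPKM, which damps low genes by construction, 5 members were lower and 1 was higher in YHJ7 by at least 1. With a pseudocount of 1 these were 15 and 2, and with a pseudocount of 0.1 they were 22 and 2. Over all genes, 6.82% were lower and 10.7% higher with a pseudocount of 5. These shares were 9.84% and 12.4% with 1, and 11.4% and 13.1% with 0.1. Of the other pathway genes, 7 were lower and 3 higher with a pseudocount of 5, 16 and 5 with 1, and 18 and 6 with 0.1. At a difference of at least 2, 2 members were lower and 0 higher, and 4 and 0 of the other pathway genes. By that measure 3.75% of all genes were lower and 2.74% higher. With the counts of YHJ7 and BY4741 brought to a common total, 1 member (REC114) and 2 other pathway genes were higher. In the other direction, 21 members and 19 other pathway genes were lower. Over all genes 7.55% were then higher and 15.7% lower. The 5 members that share a locus with another gene in the table of comparisons were left out as an alternative chosen after seeing the data. Of the other 39 members, 13 were lower and 1 was higher, beside 9.84% and 12.4% of all genes. The step of the highest share, which counts more fragments, left 1 member at or under 3 fragments in YHJ7, against 3. Set against 3 fragments of that smaller step, SSP2 was 20.4-fold lower, a figure that depends on the step and is not a bound. With the FPKM values of the table of comparisons, SMA1 reversed to 0.69, the locus there being joined with ERG10. The median of the members lay between -0.9996 and -0.38 under the alternatives. Of 176 alternative values of single members, 161 moved by less than their counting error. The sign changed in 9, of which 1 (SMA1) was of a member past a difference of 1 and 8 were of members within 1 of 0. MEI4 (to 1.47) and MND1 (to -0.60) changed sign with the table of comparisons, as did SPO13 (to -0.14). The locus of MND1 is joined there with YGL182C, which was at 1.95 FPKM in YHJ7 and 4.96 FPKM in BY4741 in the per-library values. MND1, SPO13 and SPO20, and also SSP1 and GAS4, changed sign with the common total.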

Other observations

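The genes next to the 44 members were read as a separate set of values. The 75 neighbours with a row that are not members themselves had a median level of 43.8 FPKM in YHJ7 and 43.7 FPKM in BY4741, close to the median of all genes. Their median difference was -0.11, with 12 higher and 7 lower in YHJ7 by at least 1. Of all genes 12.4% were higher and 9.84% lower. Some neighbours went in the direction of their member, as given above for YMR134W and JLP2 beside REC114, SSB2 beside MER1, and YLR307C-A beside CDA1 and CDA2. Several highly expressed neighbours were higher in YHJ7 beside members that were not. RPS28B, a ribosomal protein gene downstream of RED1, was at 3650 FPKM in YHJ7 and 499.8 FPKM in BY4741, and RPL5, upstream of SPO19, was at 1936 FPKM in YHJ7 and 773 FPKM in BY4741. AGA2, an a-specific agglutinin gene 168 bases downstream of HOP2 on the opposite strand, was at 21.95 FPKM in YHJ7 and 358 FPKM in BY4741.

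MEI4 is level in the per-library values but shares a locus with ERG28 in the authors' deposited table of comparisons, where its difference was 1.47. ERG28 by itself was at 489 FPKM in YHJ7 and 172 FPKM in BY4741. The antisense transcripts that the RefSeq annotation places across ZIP2 and SPS100 have no value here and were not analysed.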
